A study of Arabidopsis thaliana with 6 samples.

Results

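Of 33189 genes in the deposited gene table, 310 (0.934%) had no read in any of 3 wild-type libraries and at least 1 read in 2 or 3 of the 3 libraries of the mutant tsk-4. These 310 genes, called members below, were chosen by that pattern of detection alone, so their absence from the wild type and presence in the mutant define them and are described without a test. The table holds genes other than transposable element (TE) genes, which the authors deposited apart. Of the members, 308 matched the reference annotation. The other 2, the chloroplast identifiers ATCG00940 and ATCG01000, had no annotation and no recoverable reads, and each was above 0 in tsk-4 1 and 3.

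RNA levels were measured by RNA-seq of whole Arabidopsis thaliana seedlings at 7 days of age. All 6 libraries are of the Col ecotype, 3 labelled wildtype (Col 1, 2 and 3) and 3 labelled with the tsk-4 allele of TONSOKU (tsk-4 1, 2 and 3). No treatment or transgene is given in the labels, and whether libraries came from separate sowings is not given either, so p-values measure the spread between these libraries, which may be technical. Read numbers, recovered as whole numbers from the authors' TPM, came to 13726929 to 14946295 per library in the gene table, and TSK itself (AT3G18730, chromosome 3, 6445852 to 6453201) was at 167, 165 and 181 reads in Col against 40, 45 and 44 in tsk-4. In whole seedlings, more cells that express a gene and more RNA per cell cannot be told apart.

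TONSOKU is a nuclear protein that acts on newly replicated chromatin and in the repair of broken replication forks, and its mutants are known for disorganised meristems and for reactivation of silenced sequences. Genes without transcript in a seedling are held off in several ways: by DNA methylation, as TEs are, by Polycomb repression, as are many regulators of flowers and meristems, or by the lack of an activator, as are inducible defence and repair genes.

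The same rule with the genotypes exchanged took 148 genes (0.446%), called mirror genes below. The members were thus 2.09 times as many as the mirror genes, and 3.33 times as many where all 3 libraries of the detecting genotype had reads (100 against 30). The ratio depends on an equal number of libraries on both sides: with 2 libraries of each genotype, a comparison added after seeing the data, genes silent in both Col and detected in both tsk-4 libraries were 1.91 to 2.43 times as many as the reverse in the 9 combinations (243 to 286 against 102 to 134 genes). When 1 tsk-4 library alone was left out the order turned, with 169 to 171 members against 236 to 251 mirror genes, since members then needed reads in both remaining libraries and mirror genes silence in fewer. In exactly 2 libraries there were 210 members and 118 mirror genes, and 726 and 512 further genes had reads in 1 library only. Of the 9690 genes silent in Col, the members made up 3.20%, and 8654 were silent in all 6 libraries. Every tsk-4 library had more genes above 0 (22566 to 22666) than any Col library (22223 to 22347). The 3 tsk-4 libraries together held 44249677 reads and the 3 Col libraries 43185233.

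Most members were detected by few reads. Their reads over the 3 tsk-4 libraries summed to 1991, with a median of 4 a gene and a range of 2 to 81, and 122 members had at most 3 reads. No tsk-4 library carried the set: 239, 241 and 240 members had reads in tsk-4 1, 2 and 3, with 605, 671 and 715 reads, or 40.5, 46.5 and 48.0 per 1000000 reads of the gene table. In TPM, reads per kilobase of genomic span scaled to a library total of 1000000, the median member had a mean level of 0.217 and the highest 9.26. The ratio between the directions grew with the number of reads. At least 5 reads were found for 136 members and 46 mirror genes, at least 10 for 43 and 9, at least 20 for 18 and 1, and at least 30 for 8 and 0.

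**Figure D1:**
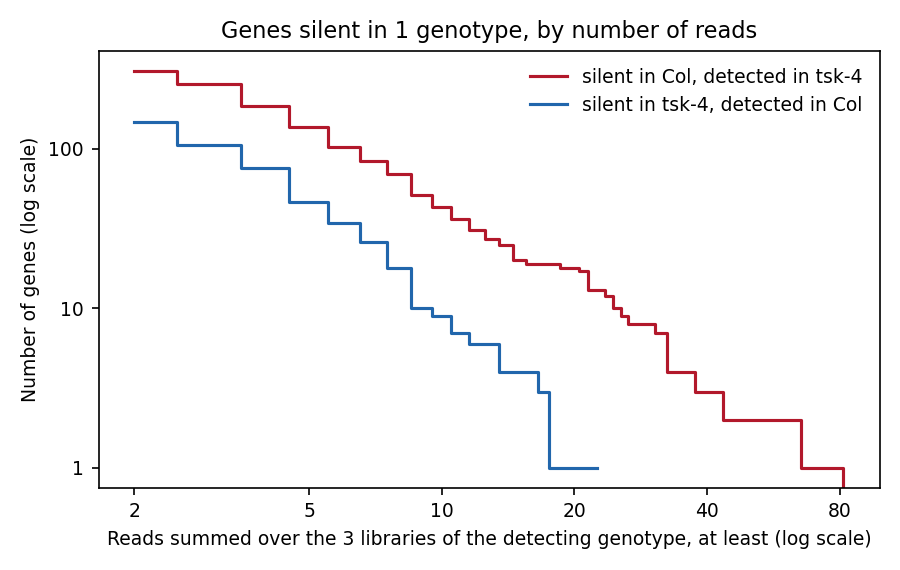
Number of genes (vertical axis, log scale) with at least a given number of reads over the 3 libraries of the genotype that detects them (horizontal axis, log scale), for members (red) and mirror genes (blue). The red line lies above the blue one throughout and runs to 81 reads, while the blue line ends at 22.

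At the edge of the rule, 55 members had only 2 reads, 1 in each of 2 libraries. Just outside it, 216 genes had a single Col read and reads in at least 2 tsk-4 libraries, against 128 genes in the other direction, and 36 against 11 of these had at least 10 reads. The pathogenesis-related glucanase gene PR2 (BGL2 in the annotation, AT3G57260) was kept out by 1 read in Col 3, with 50, 144 and 111 reads in tsk-4. ARCK1 (AT4G11890), which encodes a protein kinase, was kept out in the same way, with 1 read in Col 3 and 20, 21 and 25 in tsk-4.

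The 15 members with the most reads held 516 of the 1991 reads (25.9%). In each of them all 3 tsk-4 libraries had reads, as in 100 of the 310 members; Col was at 0 by the rule. Folds set the tsk-4 reads, taken as counted, against a floor of 3 reads over the 3 Col libraries, scaled for depth. Since these genes were chosen for their 0 in Col, the folds restate the rule and do not bound the true difference.

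**Figure D2:**
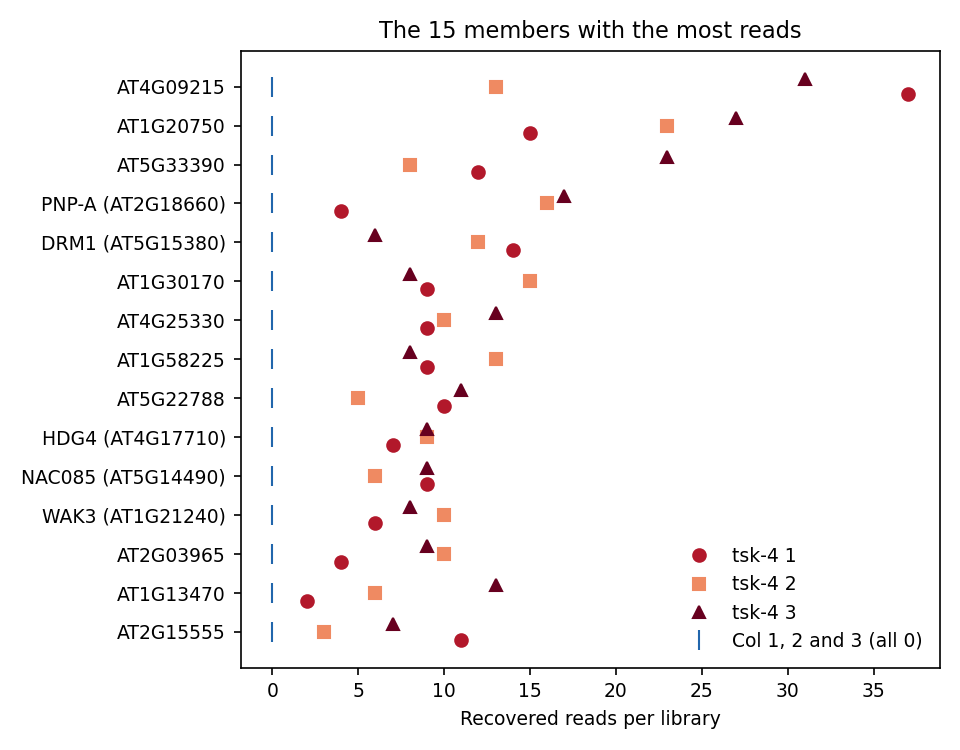
Recovered reads per library (horizontal axis) of the 15 members with the most reads; circles, squares and triangles are tsk-4 1, 2 and 3, and blue ticks the Col libraries, all at 0. The miscellaneous RNA AT4G09215 spans 13 to 37 reads, while HDG4 spans 7 to 9.

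Among these 15, AT1G20750, DRM1, AT4G25330 and NAC085 have annotations or known roles in DNA repair or chromatin; they are named by their reads, and no share was computed for such genes. AT1G20750 (chromosome 1, 7203302 to 7209013), annotated as a RAD3-like DNA-binding helicase, a class that unwinds DNA in repair, had 15, 23 and 27 reads in tsk-4 1, 2 and 3. This was the protein-coding member with the most reads, 0.586 ± 0.167 TPM (SD, n = 3) and 21.1-fold above the Col floor, with the lowest library still at 15 reads. DRM1 (AT5G15380, chromosome 5, 4991347 to 4994924), a methyltransferase of the family that sets DNA methylation de novo, had 14, 12 and 6 reads, 10.4-fold above the Col floor. Its coding sequence is 66.2% identical to that of its paralog DRM2, and 0% of its 50-base stretches occur elsewhere in the genome. AT4G25330 (chromosome 4, 12957834 to 12958791), annotated as a SAWADEE protein after a domain found in readers of histone methylation, had 9, 10 and 13 reads. These 3 libraries lay close together, at 1.72 ± 0.331 TPM. NAC085 (AT5G14490, chromosome 5, 4670289 to 4672958), a transcription factor that acts downstream of SOG1 in the DNA damage response, had 9, 6 and 9 reads, or 0.461 ± 0.0945 TPM.

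Of the list of 18 DNA damage response genes 16 could be tested, and of these 14 rose and 0 fell (limma on log2(TPM + 0.5), adjusted p under 0.05), beside 14.9% higher and 4.96% lower calls among all 19574 genes tested. On recovered reads (limma-voom, at least 10 reads over the 6 libraries) 14 of 17 rose and 0 fell, beside 9.67% higher and 9.03% lower calls among 21646 genes. TSO2 (AT3G27060), a ribonucleotide reductase subunit, had 134 ± 11.7 TPM in the Col libraries and 282 ± 1.03 in the mutant (SD, n = 3; log2 change 1.07 ± 0.07, limma adjusted p = 2.1e-05), and it overlaps another annotated gene. CYCB1;1 (AT4G37490), a mitotic cyclin induced by DNA damage, had 9.78 ± 2.36 and 19.9 ± 1.07 TPM (log2 change 1.02 ± 0.15, limma adjusted p = 0.0023). NAC085 was the one gene of that list among the members, and 1 more of its genes was silent in all 6 libraries.

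The 250 bases before the annotated starts of NAC085 (chr5:4672959-4673208, minus strand) and of AT1G20750 (chr1:7209014-7209263, minus strand) are shown because both hold the E2F-type motif TTTCCCGC. The sequences come from RefSeq TAIR10.1 and are written 5′ to 3′ on the gene's strand. Capitals mark matches on either strand: in NAC085 a pair of W-box motifs (TTGACC or TTGACT, here read from the other strand) and then the E2F-type motif, and in AT1G20750 the SOG1-type motif (CTT and AAG with 7 bases between them) and then the E2F-type motif.
NAC085: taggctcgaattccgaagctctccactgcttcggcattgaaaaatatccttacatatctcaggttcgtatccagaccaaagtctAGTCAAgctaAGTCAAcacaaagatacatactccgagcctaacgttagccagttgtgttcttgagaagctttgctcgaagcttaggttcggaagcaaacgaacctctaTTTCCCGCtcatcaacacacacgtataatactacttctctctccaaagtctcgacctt
AT1G20750: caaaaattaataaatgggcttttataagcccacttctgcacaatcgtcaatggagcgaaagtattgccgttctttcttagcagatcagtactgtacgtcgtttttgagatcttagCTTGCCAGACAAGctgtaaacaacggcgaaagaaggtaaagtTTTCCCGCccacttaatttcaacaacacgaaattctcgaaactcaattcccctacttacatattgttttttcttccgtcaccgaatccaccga
Of 308 members 3 (0.974%) held the E2F-type motif in this window, against 1 mirror gene (0.685%) and 0.575% of all 33056 nuclear genes. The third was PERK5, a receptor-like kinase gene with 0, 1 and 2 reads, named here after its values were seen. Among the 43 members with at least 10 reads the count was 2 (4.65%), NAC085 and AT1G20750 themselves. No other set was filtered to at least 10 reads for comparison, so nothing is read from that share. The SOG1-type motif was found for 34 members (11.0%), 17.1% of mirror genes and 9.69% of all genes, and a W-box for 90 members (29.2%), 19.9% and 27.8%. The TGA-type motif TGACG was found for 16.9%, 17.8% and 18.4%. A match describes the letters only, and no motif was tested.

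Transcription factors made up 29 of the 308 members by the words of their annotated products (9.42%), against 7 mirror genes (4.79%) and 3.56% of all nuclear genes. Their reads were spread evenly over the mutant libraries, with 55, 50 and 56 in tsk-4 1, 2 and 3. Few were above 10 reads: HDG4, NAC085 and TCP1. HDG4 (AT4G17710, chromosome 4, 9856255 to 9859288), a homeodomain factor of a class active in the epidermis, had 7, 9 and 9 reads, or 0.424 ± 0.0624 TPM. TCP1 (AT1G67260), of the TCP class of growth regulators, had 4, 6 and 8 reads.

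Regulators of flowers and of the shoot stem cells were among the rest, each at a few reads. STK (AT4G09960), a MADS-box factor that specifies ovules, had 1, 5 and 1 reads. AP1 (AT1G69120), a MADS-box factor of floral meristems and sepals, had 2, 1 and 1 reads. WUS (AT2G17950), the homeodomain factor that maintains the shoot stem cells, had 2, 2 and 0 reads. At this depth the levels were 0.0740, 0.0506 and 0.106 TPM, so the presence of these transcripts rests on 7, 4 and 4 reads. STK overlaps a gene on the other strand, to which its reads could belong, since the use of strand is not given in the sources used here. The MADS-box word was shared by 4 members and 1 mirror gene, the other 2 members being AGL93 and AT4G36590 with 2 reads each.

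These 3 regulators were the members on the list of 25 developmental genes repressed by Polycomb, of which 5 were silent in Col, 1 of them in all 6 libraries. Of 8 list genes expressed enough to be tested 3 rose and 0 fell by limma, beside the 14.9% and 4.96% of all genes, while limma-voom on recovered reads called 2 of 18 higher and 0 lower, beside 9.67% and 9.03%. The shoot meristem homeobox gene KNAT6 had 3.86 ± 0.298 and 5.93 ± 0.320 TPM (log2 change 0.56 ± 0.13, limma adjusted p = 0.019), a call lost without Col 2, tsk-4 1 or tsk-4 2. KNAT1 had 12.2 ± 1.53 and 15.8 ± 0.672 TPM (log2 change 0.37 ± 0.11, limma adjusted p = 0.044), and its call was lost with median-ratio scaling, on recovered reads and when any 1 library other than Col 1 was left out.

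Defence words in the annotation notes occurred for 9 members (2.92%), 5 mirror genes (3.42%) and 2.61% of all genes. These 9 include PDF1.2, PDF1.2b, PDF1.2c and PDF1.3, described below. The members named in the rest of this paragraph are not among the 9. WAK3 (AT1G21240, chromosome 1, 7434235 to 7436830), a wall-associated receptor kinase, had 6, 10 and 8 reads, and 11.9% of its 50-base stretches occur elsewhere. PNP-A (AT2G18660, chromosome 2, 8089411 to 8091736), a secreted peptide of ion and water balance, had 4, 16 and 17 reads. CRK37 (AT4G04500), a cysteine-rich receptor-like kinase, had 0, 13 and 7 reads. In PNP-A and CRK37 the library tsk-4 1 was lowest, and the same held for AT1G13470, a DUF1262 protein gene with 2, 6 and 13 reads, and for PR2 above. The summed level of the list of 17 salicylic acid and defence genes was also lowest in tsk-4 1 among the mutant libraries, at 81.9, 97.8 and 117 TPM, against 54.6 to 62.3 TPM in Col. This sum includes PR2, at 4.86, 14.4 and 10.8 TPM, and PR1, at 2.03, 5.56 and 14.1 TPM. The list genes WRKY70, WRKY38 and CBP60G were lowest in tsk-4 2, and EDS5 and NIMIN1 in tsk-4 3. ALD1 was at 0 in both tsk-4 1 and tsk-4 3. The part of this list in the order of the members' libraries was not tested.

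The list of salicylic acid and defence genes gave no member, with 1 gene silent in all 6 libraries. By limma 5 of 11 tested rose and 0 fell, beside 14.9% higher and 4.96% lower calls among all genes tested. By limma-voom 6 of 16 rose and 0 fell, beside 9.67% and 9.03%. WRKY70 (AT3G56400), a defence transcription factor, had 5.64 ± 1.51 and 14.3 ± 2.87 TPM (log2 change 1.27 ± 0.20, limma adjusted p = 0.0029). PR2 had 0.0326 ± 0.0564 and 10.02 ± 4.80 TPM (log2 change 4.19 ± 0.36, limma adjusted p = 0.00010).

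Protein and receptor-like kinases numbered 14 members (4.55%), against 3 mirror genes (2.05%) and 2.62% of all genes. Over the 14 the reads were 27, 44 and 37. The domain DUF26, an extracellular cysteine-rich domain of receptor-like kinases, was annotated in 4 members and 0 mirror genes, and in 95 genes of the table. These were CRK37, CRK39 and the adjacent genes AT5G41280 and AT5G41290, which had 4, 3 and 3 and 2, 4 and 3 reads. Cytochromes P450 numbered 6 members and 1 mirror gene. CYP71A13 (AT2G30770), an enzyme of camalexin synthesis, had 0, 6 and 2 reads and overlaps a gene on the other strand, and CYP79C1 (AT1G79370) had 0, 1 and 4.

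Plant defensins, small secreted antifungal proteins, gave 5 members (1.62%), against 2 mirror genes (1.37%) and 0.363% of all genes. PDF1.2 (AT5G44420, chromosome 5), a standard marker of the jasmonate and ethylene response, had 4, 6 and 4 reads, and its neighbour PDF1.2c (AT5G44430) had 0, 5 and 2. PDF1.3 (AT2G26010, chromosome 2) had 2, 3 and 6 reads, and its neighbour PDF1.2b (AT2G26020) had 1, 3 and 0. All 4 genes were thus detected in tsk-4 2 and at 0 in every Col library. The Gamma thionin domain is annotated in 19 genes of the table, and these 4 were members, while 0 were mirror genes. The fifth defensin-like member, AT1G77525, had 2 reads.

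The first 60 coding bases of the 4 genes show how alike the copies are, and in capitals the 9 positions at which they differ (RefSeq TAIR10.1, 5′ to 3′ on the coding strand).
PDF1.2: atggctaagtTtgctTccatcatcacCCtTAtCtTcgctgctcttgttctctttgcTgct
PDF1.2c: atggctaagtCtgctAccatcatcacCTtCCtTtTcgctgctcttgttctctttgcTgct
PDF1.3: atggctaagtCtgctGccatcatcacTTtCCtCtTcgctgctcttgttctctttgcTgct
PDF1.2b: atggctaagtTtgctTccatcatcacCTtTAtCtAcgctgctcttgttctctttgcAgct
Over the 243 coding bases the pairs of genes were 91.4 to 94.7% identical, yet at most 4.42% of the 50-base stretches of any of them recur elsewhere in the genome. How reads with several possible places were counted is not given in the sources used here.

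Upstream the copies differ more, with 35.3 to 58.0% identity over 250 bases. PDF1.2 and PDF1.2b each hold the GCC box GCCGCC, the element bound by ethylene response factors, a motif added after the values were seen, and it is in capitals below. PDF1.2c and PDF1.3 have none in this window. The windows are chr5:17907639-17907888 on the minus strand and chr2:11088873-11089122 on the plus strand.
PDF1.2: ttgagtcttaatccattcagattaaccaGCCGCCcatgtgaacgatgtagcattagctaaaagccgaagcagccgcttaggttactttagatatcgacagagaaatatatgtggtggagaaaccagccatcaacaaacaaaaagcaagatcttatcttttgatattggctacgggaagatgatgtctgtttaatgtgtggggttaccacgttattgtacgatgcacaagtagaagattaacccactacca
PDF1.2b: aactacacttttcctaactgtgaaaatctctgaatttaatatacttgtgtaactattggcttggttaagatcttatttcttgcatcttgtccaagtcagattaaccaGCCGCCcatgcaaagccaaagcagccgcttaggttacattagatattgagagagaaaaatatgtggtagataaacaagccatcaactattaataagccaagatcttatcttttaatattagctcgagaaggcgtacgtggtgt
Over all members 6 (1.95%) held a GCC box, against 0 mirror genes and 1.88% of all genes. ERF14 (AT1G04370), of the factor family that binds the box, was itself a member, with 2, 1 and 2 reads, and is named after its values were seen.

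Product words for seed storage proteins gave 5 members (1.62%), against 1 mirror gene (0.685%) and 0.387% of all genes. These words also match the wider superfamily of lipid-transfer proteins and albumins, as in the mirror gene AT5G62080, so the shares are not of storage proteins alone. SESA2 (AT4G27150), a seed albumin, had 7, 0 and 3 reads, and its neighbour SESA1 (AT4G27140) had 2, 0 and 3. CRU2 (AT1G03880), a cruciferin, had 4, 0 and 3 reads, and AT4G12530, of the lipid-transfer and albumin class, had 3, 5 and 1. The first 3 were thus at 0 in tsk-4 2. The summed level of the list of 8 seed genes was lowest among the mutant libraries in tsk-4 2 (96.7, 41.5 and 91.7 TPM), while it spanned 40.7 to 117 TPM in Col. Most of the mutant sums was CRA1, at 71.6, 25.7 and 73.2 TPM in tsk-4 1, 2 and 3, and the list includes SESA1 and CRU2. The list genes CRU3 and SESA3 were also lowest in tsk-4 2, while OLEO1, EM1 and EM6 were not. Of 5 seed genes tested limma called 0, 0 had an unadjusted p under 0.05, and limma-voom called 0 of 6. The part of the seed genes in these members was not tested.

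Markers of other tissues gave few members. Of 10 pollen and male germline genes 8 were silent in all 6 libraries and none was a member, and the 1 that could be tested, AGL65 (AT1G18750), had 4.57 ± 0.193 and 2.34 ± 0.479 TPM (log2 change -0.85 ± 0.18, limma adjusted p = 0.011). Of 11 meiosis genes none was silent in Col, and of 3 tested DMC1 (AT3G22880), a meiotic recombinase, rose from 7.82 ± 0.507 to 11.9 ± 0.747 TPM (log2 change 0.58 ± 0.11, limma adjusted p = 0.0057). Of 10 genes known to be silenced by DNA methylation or imprinted 1 was silent in Col, it was silent in tsk-4 too, and limma called 0 of 1 tested, with 0 at an unadjusted p under 0.05 and 0 of 4 called by limma-voom. Over all 7 lists, 19 of 99 genes were silent in Col, and 6 of these were members, beside 3.20% of all genes silent in Col. Of the 99, 0 were mirror genes, beside 0.446% of the whole table. The lists were chosen with earlier results of these data known, so nothing is read from these counts. In the annotation notes, words for pollen, sperm, egg or embryo occurred for 31 members (10.06%), 22 mirror genes (15.1%) and 6.404% of all genes.

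The most common product words were those of uncharacterized proteins, with 48 members (15.6%), 19.2% of mirror genes and 8.94% of all genes. AT1G30170 (chromosome 1, 10607888 to 10609618), a DUF295 protein gene, had 9, 15 and 8 reads and overlaps a gene on the other strand. AT1G58225 (chromosome 1, 21564111 to 21565261) had 9, 13 and 8 reads, or 1.34 ± 0.375 TPM. AT2G03965 had 4, 10 and 9 reads and overlaps a gene on the other strand too. The DUF295 domain, found in F-box related proteins of unknown role, was annotated in 4 members, 57 genes of the table and 0 mirror genes. Of 9 F-box members, whose products select proteins for degradation, AT2G24255 had 5, 6 and 10 reads and AT3G22700 had 2, 2 and 2. F-box genes made up 2.92% of members, 2.74% of mirror genes and 1.97% of all genes.

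Product words for a ribonuclease H-like fold, a Ulp1 protease, a reverse transcriptase or a plant mobile domain gave 8 members (2.60%), against 2 mirror genes (1.37%) and 0.333% of all genes. AT5G61090, annotated with a ribonuclease H-like fold, had 2, 3 and 6 reads, and AT3G12440 of the same class had 2, 5 and 1. The other 6 had 2 to 6 reads. Such domains are found in transposon proteins and in cellular nucleases and proteases, and the words alone do not give the origin of a gene.

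**Figure D3:**
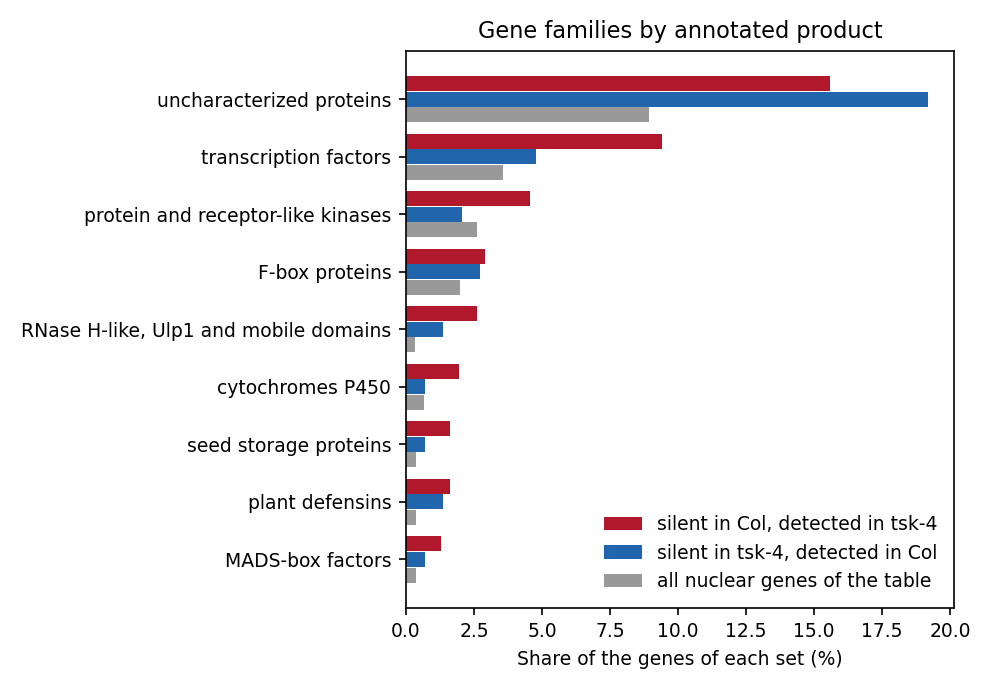
Share of genes (horizontal axis, percent) whose annotated product names a family, for 308 members (red), 146 mirror genes (blue) and 33056 nuclear genes (grey). Transcription factors take 9.42% of members and 4.79% of mirror genes, while uncharacterized proteins take 15.6% and 19.2%; the families were chosen after the members were seen.

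By annotated type 244 members were protein-coding (79.2%), 30 long non-coding RNAs, 19 miscellaneous RNAs, 6 microRNA precursors, 5 other non-coding RNAs, 2 small nucleolar RNAs, 1 small nuclear RNA and 1 transfer RNA. The protein-coding share was 74.7% of mirror genes and 83.02% of all genes. The member with the most reads was the miscellaneous RNA AT4G09215 (chromosome 4, 16891400 to 16891847), with 37, 13 and 31 reads, or 9.26 ± 4.20 TPM. Its lowest library was tsk-4 2, and it was 26.4-fold above the Col floor. The RNAs AT5G22788 (chromosome 5, 7602913 to 7603499) and AT2G15555 (chromosome 2, 6785904 to 6786976) had 10, 5 and 11 and 11, 3 and 7 reads. Of the long non-coding RNAs, AT3G06465 had 3, 2 and 8 reads and AT2G06355 had 2, 6 and 4. Among the short RNAs, AT3G02435 had 0, 3 and 3 reads, SNOR105 had 0, 1 and 4, U1.4 had 1, 3 and 0 and the transfer RNA gene AT1G79980 had 1, 2 and 0. U1.4 and AT1G79980 belong to multigene families, and 100% of the 50-base stretches of AT1G79980 recur elsewhere, so its reads are uncertain.

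The 6 microRNA members are shown by their mature sequences (RefSeq TAIR10.1, 5′ to 3′, the seed of bases 2 to 8 in capitals). The reads lie on the annotated precursors and do not measure the mature forms.
ath-miR157b-3p: gCUCUCUAgccuucugucauc
ath-miR157b-5p: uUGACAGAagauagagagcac
ath-miR858a: uUUCGUUGucuguucgaccuu
ath-miR160a-3p: gCGUAUGAggagccaugcaua
ath-miR160a-5p: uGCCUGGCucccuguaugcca
ath-miR159c: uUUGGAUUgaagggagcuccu
ath-miR854b: gAUGAGGAuagggaggaggag
ath-miR166f: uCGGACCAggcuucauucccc
No seed is shared between members. MIR157b (AT1G66795) had 5, 0 and 3 reads, while MIR157c had 93, 108 and 82 reads in the Col libraries and 92, 80 and 76 in the mutant. MIR160a (AT2G39175) had 0, 3 and 1 reads, MIR159c (AT2G46255) 0, 2 and 1 and MIR166f (AT5G43603) 1, 1 and 1. MIR159b, of the MIR159 family, had 19, 25 and 25 reads in the Col libraries and 27, 29 and 42 in the mutant. Other relatives had reads in both genotypes too. MIR157a had 8, 5 and 8 in Col against 6, 4 and 3 in the mutant, and MIR160c 6, 8 and 6 against 0, 2 and 4. MIR160b had 3, 5 and 2 against 0, 4 and 4, and MIR166b 2, 4 and 6 against 6, 0 and 3. MIR159a, MIR166a and MIR166e were also read in both. MIR858a (AT1G71002), whose family targets MYB factors of the flavonoid pathway, had 1, 2 and 0. MIR854b (AT5G04935) had 3, 0 and 1 reads, overlaps the TE gene AT5G29975 on the same strand and has 100% of its 50-base stretches elsewhere, so its reads are uncertain. The mirror genes held 6 microRNA genes too.

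Adjacent members occurred in 12 pairs (24 of 308 members), against 3 pairs of mirror genes (6 of 146). A larger set can hold more adjacent pairs, so nothing is read from the difference. The pairs with the most reads were PDF1.2 and PDF1.2c (21 reads together), SK9 and SK10 (19) and AT5G41280 and AT5G41290 (19). SK9 (AT3G21850) and SK10 (AT3G21860), on chromosome 3, encode SKP1-like subunits of ubiquitin ligases. Both are 92.4% identical in coding sequence, against 48.7% over 250 bases upstream. The pair AT5G41280 and AT5G41290 was 88.6% identical and SESA1 and SESA2 80.7%. The second defensin pair, the SESA pair and a DUF295 pair, AT5G54550 and AT5G54560, had 15 reads each and are named after their values were seen.

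By the share within 5 kb and by median distance, TE genes lay nearer to the members than to genes at large, and about as near as to genes silent in all 6 libraries. A TE gene was within 5 kb of 50 members (16.2%), of 12.3% of mirror genes, of 16.0% of genes silent in all 6 libraries and of 10.9% of all nuclear genes. The median distance was 50.8 kb for members, 53.1 kb for mirror genes, 47.2 kb for genes silent throughout and 64.1 kb for all. Dense surroundings, with at least 10 TE genes within 50 kb, were found for 31 members (10.06%), 6.16% of mirror genes, 7.35% of genes silent throughout and 3.71% of all genes. The 2376 genes outside the first 3 of these sets with 2 to 20 reads over the 6 libraries lay between members and all genes. Of them 13.4% had a TE gene within 5 kb and 4.76% dense surroundings, and their median distance was 54.1 kb. Among the 43 members with at least 10 reads the dense share was 16.3% (7 genes) and the median distance 22.3 kb. No other set was filtered to at least 10 reads to compare with these 43.

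Members in dense surroundings included 3 of those with the most reads. AT5G33390 (chromosome 5, 12661708 to 12663496), annotated as a glycine-rich protein, had 12, 8 and 23 reads and 20 TE genes within 50 kb, the nearest 1.01 kb away. AT5G29560, a caleosin-related gene, had 4, 4 and 13 reads and 16 TE genes, and CRK37 had 13. In AT5G33390 and AT5G29560 the library tsk-4 3 was highest. A TE gene overlapped 5 members, among them the kinase gene AT4G11373 with 8, 1 and 0 reads. The TE gene AT4G11375, which overlaps it on the other strand, had 2 reads over the Col libraries and 11 over the mutant ones.

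**Figure D4:**
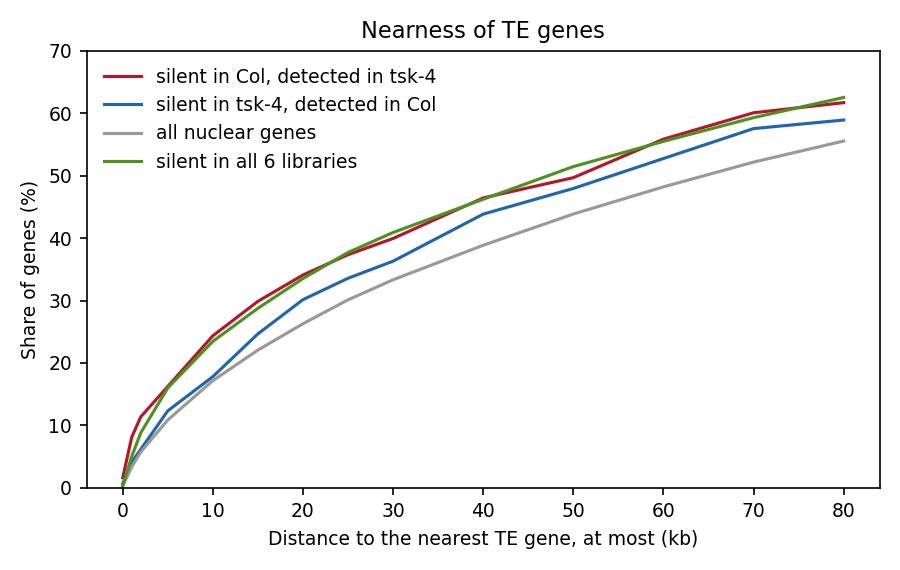
Share of genes (vertical axis, percent) with a TE gene within a given distance (horizontal axis, kb), for members (red), mirror genes (blue), genes silent in all 6 libraries (green) and all nuclear genes (grey). The red and green lines run together, at 16.2% and 16.0% within 5 kb, above the grey line at 10.9%.

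Of 3901 TE genes 274 (7.02%) followed the same rule and 26 (0.666%) its reverse. Of 64 TE genes within 5 kb of a member 7 (10.9%) followed it, against 3 of 21 (14.3%) near mirror genes and 6.83% of the 2005 near any gene. Leaving out tsk-4 1 brought the 7 down to 2 and leaving out tsk-4 3 to 4, where both remaining libraries had to show reads. The other TE genes were not counted under these settings, so the falls cannot be compared. No difference from the other TE genes is read from the 7, and none was tested. The TE gene AT3G29078 had 8, 7 and 2 reads in tsk-4 and 0 in Col, and lies 64 bp from the member AT3G29080, and AT5G28100 had 2, 3 and 0 reads and lies 0.813 kb from AT5G28090.

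The rule did not use the values of the nearest genes beside the members. Those neighbours that could be tested had a share of higher calls not far above that of all genes. Of 287 tested neighbours within 5 kb 55 rose (19.2%) and 12 fell (4.18%), beside 14.9% and 4.96% of all tested genes. Near mirror genes 23 of 149 rose (15.4%) and 11 fell (7.38%). The median log2 change was 0.10 for the members' neighbours and 0.08 for all genes. Near members with at least 10 reads 7 of 45 rose (15.6%), close to the background. With median-ratio scaling 33 neighbours rose and 23 fell, beside 1802 and 1607 of all tested genes. Leaving out Col 1 gave 34 rises and 4 falls, beside 2009 and 562 over all tested genes. Leaving out Col 2 gave 35 and 6, beside 1798 and 507, and tsk-4 3 33 and 7, beside 1822 and 575. Leaving out tsk-4 2 gave 6 falls, beside 629. With all libraries and the main scaling all tested genes gave 2912 rises and 971 falls. No test of the difference between these shares was made.

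The called neighbours named here are those with the smallest adjusted p. AT2G18193 (chromosome 2, 7917413 to 7919345), a nucleoside triphosphate hydrolase gene 1.54 kb from AT2G18190, a member with 3 reads, had 4.34 ± 0.699 TPM in the Col libraries and 41.1 ± 3.21 in the mutant (SD, n = 3; log2 change 3.11 ± 0.12, limma adjusted p = 5.0e-06). AHP4 (AT3G16360), a phosphotransmitter of cytokinin signalling 2.66 kb from PAB6, a member with 5, 1 and 5 reads, had 3.93 ± 1.17 and 23.5 ± 3.999 TPM (log2 change 2.46 ± 0.19, limma adjusted p = 6.2e-05). AT3G46430, an ATP synthase gene next to the leucine-rich repeat kinase member AT3G46420, had 82.5 ± 12.3 and 215 ± 25.002 TPM (log2 change 1.38 ± 0.11, limma adjusted p = 8.3e-05). AT3G17020 lies 25 bp from REM22 and had 73.1 ± 2.84 and 117 ± 6.52 TPM (log2 change 0.68 ± 0.06, limma adjusted p = 0.00018), and AT3G46610, near RTFL4, had 22.1 ± 0.535 and 41.8 ± 5.20 TPM (log2 change 0.89 ± 0.10, limma adjusted p = 0.00041). The 5 members beside these genes had 3 to 11 reads. AHP4 and AT3G46610 overlap other annotated genes.

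Few members overlap other genes. Of 308, 60 did (19.5%), 52 of them on the other strand and 12 on the same strand, against 27.4% of mirror genes and 31.7% of all genes. Most members are also distinct in sequence: 217 (70.5%) share no 50-base stretch with another place in the genome, against 82.9% of mirror genes, and 282 (91.6%) share under 10%. In 9 members at least 50% of the stretches recur, among them SPL13B and MIR854b at 100% and AGL93 at 50.9%.

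Only 8 members reached the level needed for the test across genes, at least 1 TPM in 3 libraries, and a gene silent in Col can reach it only through the mutant libraries, so their 8 calls restate how they were chosen. They were AT4G09215, AT4G25330, AT1G58225, AT5G22788, AT1G09505, AT2G06355, AT2G07135 and MIR166f, the last on 3 reads. By limma-voom on recovered reads 34 of the 43 members that could enter were called higher, beside 9.67% higher and 9.03% lower calls among 21646 genes, and nothing is read from either count. The mirror genes with the most reads were AT1G03320, with 3, 9 and 10 reads in Col 1, 2 and 3, AT2G39855 with 7, 4 and 6, AT4G04845 with 2, 9 and 6, AT4G03480, an ankyrin repeat gene, with 6, 7 and 3, and CYP71B14 with 9, 1 and 3, all fewer than the 23 reads of the thirteenth member.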

How the data were processed

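Total RNA of whole seedlings was sequenced in 6 libraries, 3 per genotype, and grouped by the sample titles. The authors deposited TPM for genes and, in a table normalized apart, for TE genes; a table of TE fragments was not used here. The tools named are, per the submitters' processing notes, HTSeq 0.11.2, DESeq2 1.26.0, fastp 0.20.1 and HISAT2, with the build TAIR10. Not given in the sources used here are their settings, the use of strand and how reads with several possible places were counted. Positions, products and sequences come from RefSeq TAIR10.1, which matched 33056 gene rows and all 3901 TE genes by identifier.

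Whole reads were recovered as TPM times the genomic span times 1 constant per library. Every annotated value above 0 of the gene table came out whole within 0.02 reads, and 99.758 to 100% of those of the TE gene table did. The floor used for folds covers counting error in Col only, and not the choice of the members by their 0 in Col. The test was limma 3.58.1 (R 4.3.3) with a trend on log2(TPM + 0.5), for genes with at least 1 TPM in at least 3 libraries, with Benjamini-Hochberg adjustment over 19574 genes and a threshold of 0.05; log2 changes are tsk-4 over Col, with their standard errors, and understate low genes. The deposited TPM fixes each library's total, and over the tested genes the median log2 change came to 0.083, or -0.003 with median-ratio scaling. Alternatives were other scalings, pseudocounts and filters, limma-voom on recovered reads, a replicate block, other detection rules and leaving out each library.

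The members, gene lists, motifs, family words and tests were chosen with earlier results of these data known. Named are the 15 members with the most reads, the 2 with the most per RNA type and per family of at least 4 members, all members on a list with the 2 called list genes of highest mean TPM, the 3 leading runs of adjacent members, 5 called neighbours, 3 TE genes (1 of them is not reported here), 5 mirror genes and TSK. Tables and figures were made with Python 3.11.15, pandas 2.3.3, NumPy 2.4.6, Biopython 1.88 and matplotlib 3.10.9.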

Additional observations from a re-analysis of the deposited data

How the results depend on the processing

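The number of members and mirror genes follows the rule closely. With reads in 3 of 3 libraries there were 100 members and 30 mirror genes, with reads in at least 1 library 1036 and 660, and with at least 2 reads in at least 2 libraries 123 and 42. Leaving out 1 library gave 169 to 491 members and 59 to 251 mirror genes. Without tsk-4 1, 2 and 3 the members numbered 171, 169 and 170, since both remaining libraries then had to show reads, fewer than the 251, 237 and 236 mirror genes, for which fewer libraries had to be silent. Without Col 1, 2 and 3 the mirror genes numbered 71, 59 and 78, and without Col 3 the members 491. With 2 libraries of each genotype, chosen after seeing the data, the medians over 9 combinations were 256 and 123, and the genes silent in Col were more in all 9. With under 10% of sequence copied elsewhere, an alternative chosen after seeing the data, 282 members and 141 mirror genes were left.

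Calls moved with scaling and single libraries. Median-ratio scaling gave 1802 higher and 1607 lower genes, and 33 higher and 23 lower neighbours, and limma-voom on recovered reads 1954 lower genes, 27 lower neighbours and 34 members called. With no filter on low values 56 members were called, beside 2696 higher and 832 lower genes. Both counts of members called restate how the members were chosen, and nothing is read from them. Leaving out 1 library gave 1798 to 3364 higher and 507 to 1170 lower genes, 33 to 59 higher and 4 to 15 lower neighbours, 17 to 21 higher and 1 to 2 lower list genes, and 2 to 10 TE genes near members; within 10 kb there were 14 such TE genes. The cause of these moves was not tested.

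Same-numbered libraries deviated together with correlations of 0.12, -0.09 and -0.11, so the numbers do not pair the libraries. The replicate block gave 2310 higher and 750 lower genes, 42 and 10 neighbours and 19 higher list genes. Among the named genes it ended the call of KNAT1 only, with a log2 change of 0.37. Over the 14 tested named genes 156 alternative values kept their direction and side of the threshold, and 12, all of KNAT1 and KNAT6, lost the call. Depth limits the members: 122 of 310 rest on at most 3 reads, for which no fold against the Col floor was computed.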
